A study of Rattus norvegicus with 42 samples.

Results

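The genes described here encode integrins, laminins and other parts or receptors of basement membranes. They were taken by symbol from the array's probe table: integrin alpha and beta chains, laminin alpha, beta and gamma chains, nidogens, agrin, perlecan, the Fras1 and Frem family, dystroglycan, fibronectin, vitronectin, tenascin C and the fibulins. The symbol pattern found 46 of the 14218 genes named by a probe set: 22 integrin chains, 10 laminin chains and 14 other genes. Where several probe sets named a gene, the one brightest on average across the arrays stood for it. A gene was tested when the mean of at least 1 group exceeded log2 5.79 (intensity 55.2), the 40th percentile of all values, which stands for signal over background. That left 39 of the 46 genes (18 integrins, 10 laminins and 11 others) among 11388 tested genes. The 7 genes that were not tested are Itgax, Itgb4, Itgb6, Itgb7, Fras1, Frem3 and Vtn. Npnt (nephronectin) and Frem1 had no probe set that named them alone and are not analysed here.

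The tissue was rat metanephric mesenchyme, the kidney precursor tissue that forms nephrons once it is induced, dissected on embryonic day 13.5 and freed of the ureteric bud by trypsin and DNase digestion and by hand. Explants were cultured on collagen-coated transwell filters with 1 of 3 inducers or with none. LIF (a cytokine of the interleukin 6 family), NGAL (the lipocalin encoded by Lcn2) and ANX (an inducer whose content the sources used here do not give) were each sampled on days 1, 2, 3, 4, 5 and 7. The references were explants kept without inducer for 1 and 2 days (control) and freshly dissected tissue (fresh). Every culture, control included, received the same medium with T3, dexamethasone, prostaglandin, selenium, transferrin, insulin, an FGF and a TGF, so fresh tissue differs from all cultures in more than the inducer. Each of the 21 groups held 2 arrays labelled as biological replicates (42 arrays). How many embryos went into an array, and their strain, the sources used here do not say.

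Basement membranes are sheets of laminin and collagen IV joined by nidogens and by the heparan sulfate proteoglycans perlecan and agrin. Laminins are trimers of an alpha, a beta and a gamma chain, and cells hold them through integrins, which pair an alpha with a beta chain, and through dystroglycan. In kidney development the mesenchyme loses an interstitial matrix rich in fibronectin and gains a basement membrane as it turns into epithelium. In mouse organ culture, antibodies against the laminin alpha 1 chain or the integrin alpha 6 chain disturb that step, and the integrin of alpha 8 and beta 1 chains on the mesenchyme is needed for the ureteric bud to grow into it.

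Replicate arrays correlated at 0.936 to 0.995 over the tested genes. The lowest values were 0.936 for LIF day 7, 0.944 for ANX day 3 and 0.952 for NGAL day 7, and some members' replicate values in these groups lay far apart. Of the 8 metanephric mesenchyme markers with a probe set, all 8 were over the threshold in fresh tissue, where their summed intensity was 9602 and 8936. Fresh tissue also carried renal stroma markers (8 of 8 over the threshold, sums of 14950 and 14970) and endothelial markers (9 of 9, sums of 3630 and 3913). In such bulk tissue, fewer cells of a type and less RNA per cell cannot be told apart. A spiked-in bacterial transcript, dap, checks the labelling by its 3' over 5' signal: that log2 ratio ran from 0.80 to 2.43 over the arrays, and the 5S rRNA signal from 6.30 to 10.3 (log2).

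For 34 of the 46 genes RefSeq (rat build GRCr8) gives a promoter window of 250 bases before to 50 bases after a start of the gene. Among the windows printed below, for Nid1 and Fbln5 the gene record reaches further upstream than the start the window uses. All of the Nid1 window and part of the Fbln5 window therefore lie within the annotated gene. Other windows of the 34, among them those of Agrn, Itga3, Itgb6 and Lama3, also lie within the annotated gene. The motif counts below include them. Shown here are the windows of Fbln5, Nid1 and Itgb1, whose group means were among the most alike (r = 0.919 to 0.934 between them), and of Lama1, whose level was highest on day 7 under all 3 inducers. They were chosen after the values were seen. Capitals mark the letters GGAATG or its complement (the core bound by TEAD factors) and GGGCGG or its complement (the GC box bound by Sp1). The Fbln5 window is chr6:126742657-126742956 (minus strand), the Nid1 window chr17:93069036-93069335 (plus strand), the Itgb1 window chr19:73602027-73602326 (plus strand) and the Lama1 window chr9:115139298-115139597 (plus strand).
Fbln5: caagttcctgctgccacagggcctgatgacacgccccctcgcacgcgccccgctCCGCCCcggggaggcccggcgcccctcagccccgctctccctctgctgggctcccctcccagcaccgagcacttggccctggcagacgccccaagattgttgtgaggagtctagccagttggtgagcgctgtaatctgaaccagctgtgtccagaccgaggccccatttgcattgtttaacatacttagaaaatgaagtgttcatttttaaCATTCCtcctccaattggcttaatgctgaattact
Nid1: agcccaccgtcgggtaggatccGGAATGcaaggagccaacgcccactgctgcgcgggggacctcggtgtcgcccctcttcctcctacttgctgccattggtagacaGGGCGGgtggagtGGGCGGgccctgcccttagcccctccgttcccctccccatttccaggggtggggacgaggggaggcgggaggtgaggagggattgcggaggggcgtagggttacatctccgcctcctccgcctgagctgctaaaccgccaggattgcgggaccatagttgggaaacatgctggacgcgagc
Itgb1: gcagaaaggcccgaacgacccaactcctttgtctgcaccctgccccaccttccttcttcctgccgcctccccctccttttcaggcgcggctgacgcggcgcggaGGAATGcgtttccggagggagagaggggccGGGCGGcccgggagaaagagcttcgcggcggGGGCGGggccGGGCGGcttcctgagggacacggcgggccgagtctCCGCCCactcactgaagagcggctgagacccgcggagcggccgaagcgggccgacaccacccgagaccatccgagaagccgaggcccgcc
Lama1: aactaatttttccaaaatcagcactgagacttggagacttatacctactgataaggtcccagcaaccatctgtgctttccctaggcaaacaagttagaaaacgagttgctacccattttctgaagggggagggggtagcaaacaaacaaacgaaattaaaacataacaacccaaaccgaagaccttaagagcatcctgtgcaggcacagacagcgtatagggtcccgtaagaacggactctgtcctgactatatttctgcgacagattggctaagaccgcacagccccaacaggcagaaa
The TEAD letters stand once in each of the first 3 windows and not in that of Lama1. They were present in 9 of the 34 windows of these genes and in 14.2% of 33469 windows of all genes. The GC box was present in 19 of the 34 and in 33.1% of all, the AP-1 letters TGANTCA in 2 and in 7.33%, and the TATA letters TATAAA in 3 and in 14.2%, with both strands searched and motifs free to overlap. None of the 4 motifs was in the Lama1 window. A match is a description of these letters only.

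Among the 39 tested genes, 25 had group means that spanned more than 2-fold (a log2 range over 1) and 14 more than 4-fold, while 11 spanned a log2 range under 0.7. The widest ranges were those of Fbln5 (fibulin 5, of elastic fibres) at 4.44, Itga1 (a chain of a collagen receptor) at 4.16, Tnc (tenascin C, a matrix glycoprotein of embryonic mesenchyme and wounds) at 3.98 and Fbln1 (fibulin 1) at 2.98. Among laminins the widest were Lamc1 (gamma 1, in most laminins) at 2.39, Lama1 (alpha 1, of early epithelial basement membranes) at 2.39, Lama2 (alpha 2, best known from muscle) at 2.33 and Lama4 (alpha 4, of vessels and mesenchyme) at 2.15. Chains of leukocyte integrins were among those with narrow ranges: Itgb2 ranged over 0.67 (highest group mean 6.17), Itgal over 0.56, Itgam over 0.45 and Itgad over 0.38. The epidermal laminin chains were similar, with Lama3 at 0.32 and Lamb3 at 0.33, as was Itga7 (a laminin receptor chain of muscle) at 0.31, whose probe set can bind several transcripts. Over the 21 group means, Itgb1 (beta 1, partner of most laminin and collagen receptor chains) was nearest to Fbln5 (r = 0.934) and Nid1 (nidogen 1, r = 0.933), and Lama4 was nearest to Lamb2 (r = 0.936). Lama1 was nearest to Itga6 (r = 0.788) and Lama5 (alpha 5, of mature epithelial basement membranes) to Dag1 (r = 0.764). These correlations share the same arrays and are descriptions.

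**Figure D1:**
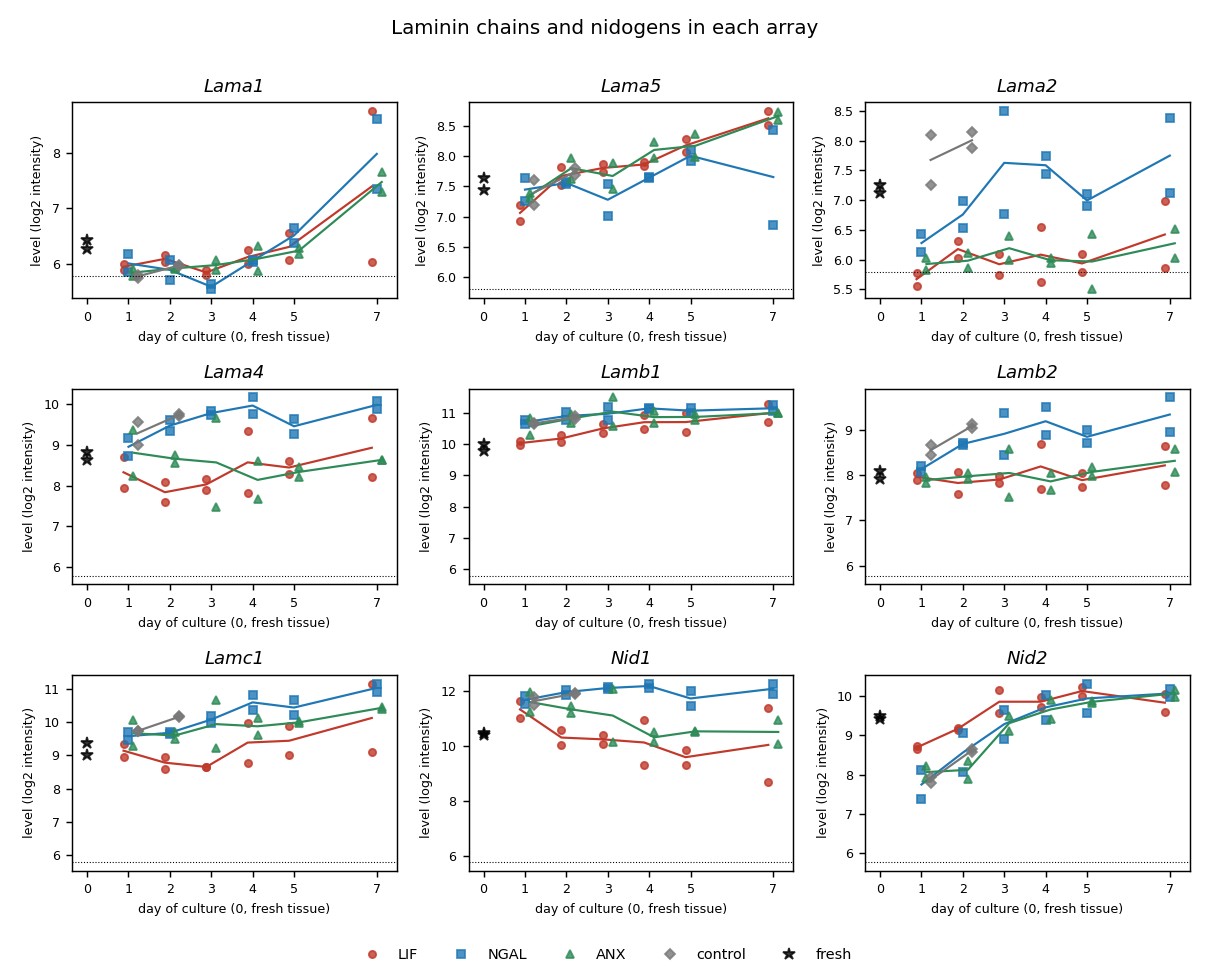
Level (log2 intensity) of 7 laminin chains and 2 nidogens against day of culture, with fresh tissue at day 0. Each symbol is 1 array, lines join group means, the dotted line is the signal threshold of log2 5.79, and the y axes differ between panels. Lama1 has its highest mean on day 7 under each inducer, Lama2 and Lama4 lie higher in NGAL than in LIF arrays on each day, and the LIF day 7 arrays lie far apart in Lama1, Lamc1 and Nid1.

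Mesenchyme kept without inducer had more Itga1 on its day 2, and less nidogen 2 on its day 1, than fresh tissue. On day 1, Nid2 (nidogen 2, which links laminin to collagen IV) was at log2 7.93 and 7.80 in control explants, against 9.49 and 9.40 in fresh tissue. Both control arrays were lower, a log2 difference of -1.58 (SE 0.31, limma adjusted p = 0.00267), and that call stood whichever array was left out. Hspg2 (perlecan) fell too, with 7.04 and 7.50 in day 1 controls and 8.14 and 7.81 in fresh tissue (-0.70, SE 0.19), as did Fbln2 (fibulin 2), by 0.63 (SE 0.14). Fbln2 was over the threshold only in fresh tissue and on NGAL day 7, and with the control mean set to the threshold the difference is -0.53. In all, 3 of 39 genes fell and 0 rose, where 6.06% of all tested genes were called (2.26% fell and 3.8% rose), with 11 members and 2640 genes at an unadjusted p under 0.05. The calls of Hspg2 and Fbln2 ended without fresh replicate 1, fresh replicate 2 or day 1 control replicate 1. In fits with 1 array left out, here and below, the share of all genes was not counted. The 5S rRNA signal was 8.67 and 7.56 in day 1 controls, against 6.32 and 6.62 in fresh tissue, and the dap ratio 2.01 and 1.04, against 1.21 and 1.31. Skeletal muscle markers (2 of 7 tested rose) summed to 2304 and 2165, against 1266 and 1319. Their part in the result was not tested. The laminin chains were not called. Lamb1 (beta 1) was at 0.77 and Lama1 at -0.58, and Nid1 was at 1.2.

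After 2 days without inducer, 7 members rose and 3 fell, beside 9.47% and 12.7% of all tested genes (22.2% in all). The median difference was 0.07 over members and -0.05 over all genes. Itga1 rose most. It was at 10.67 and 10.98 in day 2 controls, against 7.52 and 7.38 in fresh tissue, a difference of 3.37 (SE 0.66, limma adjusted p = 0.00103). Tnc was at 7.58 and 7.69, against 4.74 in both fresh arrays (2.90, SE 0.80). The fresh level is below the threshold, and with it set to the threshold the difference is 1.85. Fbln5 was at 9.31 and 9.07 in day 2 controls and 6.77 and 6.71 in fresh tissue (2.45, SE 0.80). For these 3 genes both cultured arrays were above both fresh ones. The share of all genes whose arrays lie apart in such a way was not counted, here or elsewhere, except where it is given.

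Lamb2 (beta 2, the chain of the mature glomerular membrane) rose by 1.08 (SE 0.35) and Lamb1 by 0.96 (SE 0.25). Itgav (the alpha chain of vitronectin receptors) was 0.91 (SE 0.33) and Itgb1 0.59 (SE 0.20) above fresh tissue by the probe sets used. Other probe sets of these genes past the threshold had the opposite sign, between -0.70 and -0.20 for Itgav and at -0.14 for Itgb1. Hspg2 (-0.63), Fbln2 (-0.55) and Itgae (-0.45, partner of the beta 7 chain on lymphocytes) fell. The day 2 control mean of Fbln2 was also under the threshold, and set to it the difference is -0.53. Anchors of the mesenchyme and of epithelia that were not called include Itga8 (-0.63), Itga6 (-0.93), Lama1 (-0.38), Lamc1 (0.97), Nid1 (1.48), Agrn (agrin, -0.74), Fn1 (fibronectin, 0.25) and Dag1 (0.07). The call of Itga1 stood without any 1 array. Those of Tnc, Fbln5, Lamb2, Itgav and Itgb1 were lost in each of the 4 fits with 1 array fewer, which called 2 or 3 members. Other measures moved with this comparison. The dap ratio was 2.10 and 2.22 in day 2 controls, against 1.21 and 1.31 in fresh tissue. With it as a covariate 5 members were called, and the share of all genes was not counted. The 5S rRNA signal was 10.1 and 10.3, against 6.32 and 6.62. Skeletal muscle markers (4 of 7 tested rose) summed to 3462 and 3982 in day 2 controls and to 1266 and 1319 in fresh tissue. Endothelial markers (6 of 9 fell) summed to 1880 and 1929, against 3630 and 3913. The part of rRNA, muscle and endothelium in the result was not tested.

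Of the 10 laminin chains, 5 were lower in LIF explants than in uninduced explants of the same days, and the other 5 were not called. Beta 1 integrin was lower too, by the probe set used. Over days 1 and 2 (4 LIF arrays, 4 controls), 8 members fell and 1 rose, beside 12.6% and 11.4% of all tested genes (24% in all), with medians of -0.06 over members and 0.03 over all genes. Lama2 was at 5.56, 5.78, 6.32 and 6.03 in LIF arrays, against 8.09, 7.26, 8.14 and 7.87 in controls. All LIF arrays were below all controls, a log2 difference of -1.92 (SE 0.32, limma adjusted p = 0.000200). With the LIF day 1 mean, which is under the threshold, set to it, the difference is -1.86. Lama4 was at 7.94, 8.71, 7.59 and 8.08 under LIF and 9.57, 9.0, 9.72 and 9.75 in controls, again without overlap (-1.43, SE 0.37). Itga1 changed by -1.71 (SE 0.47), Lamc1 by -0.99 (SE 0.33, and -0.46 by its other probe set), Lamb2 by -0.92 (SE 0.25) and Itga9 (with beta 1, a tenascin C receptor) by -0.80 (SE 0.25).

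Lamb1 and Itgb1 fell by smaller amounts under LIF. Lamb1 was at 9.97, 10.09, 10.06 and 10.30 in LIF arrays and at 10.68, 10.65, 10.81 and 10.91 in controls (-0.66, SE 0.18). Itgb1 was at 11.82, 11.82, 11.51 and 11.58, against 12.09, 12.21, 12.29 and 12.27 (-0.53, SE 0.14). Neither gene's groups overlapped. The other Itgb1 probe set past the threshold gave -0.17. Nid2 was the member that rose, with 8.65, 8.72, 9.14 and 9.19 under LIF and 7.93, 7.80, 8.57 and 8.66 in controls (0.68, SE 0.22, limma adjusted p = 0.0250). On each day both LIF arrays were above both controls, but dropping any 1 of the 8 arrays ended that call (limma adjusted p up to 0.0713). The call of Lamc1 ended in 6 of them, that of Itga9 in 4, that of Itga1 in 3 and that of Lamb2 in 1. The Lamc1 call also ended with probe sets averaged (-0.73) and with the spike-in covariate (-0.89). With probe sets averaged, the calls of Itgb1 and Itga9 ended too. The calls of Lama2, Lama4, Lamb1 and Itgb1 stood in all 8 fits with 1 array left out. The lowest count, 4 members, came without LIF day 2 replicate 1, and it was 5 without LIF day 1 replicate 1 or day 1 control replicate 1. On day 1 alone 1 member was called (Lama2) beside 8.33% of all genes, and on day 2 alone 5 beside 8.14%. Uncalled anchors were Tnc (-1.13), Nid1 (-0.95), Itgav (-0.52), Itga8 (-0.39), Agrn (-0.38), Lama1 (0.15), Dag1 (0.23) and Fn1 (0.29).

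ANX, set against the same 4 controls, gave 4 calls: 3 members fell and 1 rose, beside 9.12% and 11.2% of all tested genes (20.3% in all). Lama2 was at 5.82, 6.03, 5.85 and 6.11 in ANX arrays, against the control values given above, again without overlap (-1.89, SE 0.32, limma adjusted p = 0.000269). Itgb3 (beta 3, partner of alpha V in the vitronectin receptor) rose. It was at 7.09, 7.14, 7.53 and 7.81 under ANX and at 6.23, 5.87, 6.64 and 6.43 in controls (1.10, SE 0.20, limma adjusted p = 0.000422), with every ANX array above every control. Both calls stood in all 8 fits that left out 1 array and on each day alone. Itga9 (-0.97, SE 0.25) and Lamb2 (-0.88, SE 0.25) fell as well. Dropping replicate 1 of the day 1 control or of ANX day 1 ended both calls, and dropping replicate 1 of ANX day 2 ended that of Itga9. With day 1 control replicate 1 dropped 2 members were called, and with replicate 2 dropped 7. Uncalled anchors were Tnc (-1.29), Lama4 (-0.78), Itgb1 (-0.25), Lamb1 (-0.07), Lama1 (0.01), Itga6 (0.33) and Itga8 (0.65).

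NGAL gave no called gene against the same controls, 0 of 39 members and 0% of 11388 genes by limma, with 3 members and 799 genes at an unadjusted p under 0.05. These 3 were Lama2 (-1.32, SE 0.32), Itga8 (0.75, SE 0.26) and Itgb3 (0.50, SE 0.20). Lama2 was at 6.43, 6.12, 6.54 and 6.98 in NGAL arrays and at 8.09, 7.26, 8.14 and 7.87 in controls, so the groups did not overlap, yet its adjusted p was 0.248. For Lama2 the differences from control were thus -1.92 under LIF, -1.32 under NGAL and -1.89 under ANX, and the 3 comparisons share their controls.

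The difference between inducers in these early effects was tested as well, a test added after the values were seen. The LIF effect differed from the NGAL effect for Itga8 (-0.39 under LIF and 0.75 under NGAL, a difference of -1.14, SE 0.26), Lamb1 (-0.66 and 0.04, a difference of -0.70, SE 0.18), Itgb1 (-0.53 and 0.03, a difference of -0.56, SE 0.14) and Nid2 (0.68 and -0.09, a difference of 0.77, SE 0.22). These are 4 of 39 members, beside 5.17% of all genes. No member differed between LIF and ANX or between NGAL and ANX (0.623% and 2.12% of genes).

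Other measures moved with the early comparisons. Renal stroma markers fell in 5 of 8 cases under LIF and in 5 of 8 under ANX. Their summed intensity was 10420 to 10940 in LIF arrays of days 1 and 2, 13530 to 16940 in NGAL arrays and 9963 to 12560 in ANX arrays, against 16090 to 17830 in controls. Endothelial markers fell in 6 of 9 cases under LIF and 4 of 9 under ANX, with sums of 1177 to 1811 and 1408 to 2186, against 1880 to 3592 in controls. The 5S rRNA signal was 7.00 to 8.70 under LIF and 7.02 to 7.47 under ANX, against 7.56 to 10.3 in controls. The part of these in the results was not tested.

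By day 7, laminin alpha 1, nidogen 2 and other basement membrane genes were higher than on day 1 of the same inducer. For Lama1 the LIF arrays were at 6.04 and 8.74 on day 7, against 6.01 and 5.89 on day 1. The NGAL arrays were at 7.35 and 8.60, against 6.17 and 5.85, and the ANX arrays at 7.29 and 7.65, against 5.91 and 5.78. LIF day 7 replicate 1 therefore stayed at its day 1 level, and the other 5 arrays of day 7 were above all arrays of day 1. The differences were 1.44 (SE 0.46, limma adjusted p = 0.0432) for LIF, 1.97 (SE 0.46, 0.00541) for NGAL and 1.63 (SE 0.46, 0.0192) for ANX. Without LIF day 7 replicate 2 the LIF value was 0.09, and without replicate 1 it was 2.80. The LIF call of Lama1 also ended after quantile normalization and with the spike-in covariate. Itga6 (a laminin receptor chain) was at 5.07 and 8.35 in LIF, 6.87 and 8.30 in NGAL and 6.97 and 7.80 in ANX arrays of day 7. Its differences from day 1 were 0.67, 1.51 and 1.01, and it was not called under any of the 3.

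Nid2 rose from day 1 to day 7 under all 3 inducers, but from a level under that of fresh tissue. Its day 1 means were 8.69 under LIF, 7.75 under NGAL and 8.06 under ANX, against 9.45 in fresh tissue. The day 7 means were 9.83, 10.06 and 10.06, and Nid2 was not called for day 7 against fresh tissue. It was at 9.59 and 10.06 on LIF day 7, against 8.65 and 8.72 on day 1 (1.14, SE 0.31). It was at 9.96 and 10.17 on NGAL day 7, against 7.39 and 8.11 (2.31, SE 0.31, limma adjusted p = 3.49e-05), and at 9.97 and 10.16 on ANX day 7, against 8.21 and 7.92 (2.00, SE 0.31). The NGAL and ANX calls stood whichever array was left out, while the LIF call ended without LIF day 1 replicate 1, LIF day 1 replicate 2 or LIF day 7 replicate 2. Lama5 rose under LIF, with 8.52 and 8.75 on day 7 and 6.93 and 7.19 on day 1 (1.58, SE 0.29), and under ANX, with 8.74 and 8.60 on day 7 and 7.31 and 7.39 on day 1 (1.32, SE 0.29). Under NGAL its day 7 arrays were at 6.87 and 8.45, against 7.64 and 7.25, so they lay on either side of the day 1 values (0.21, not called).

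**Figure D2:**
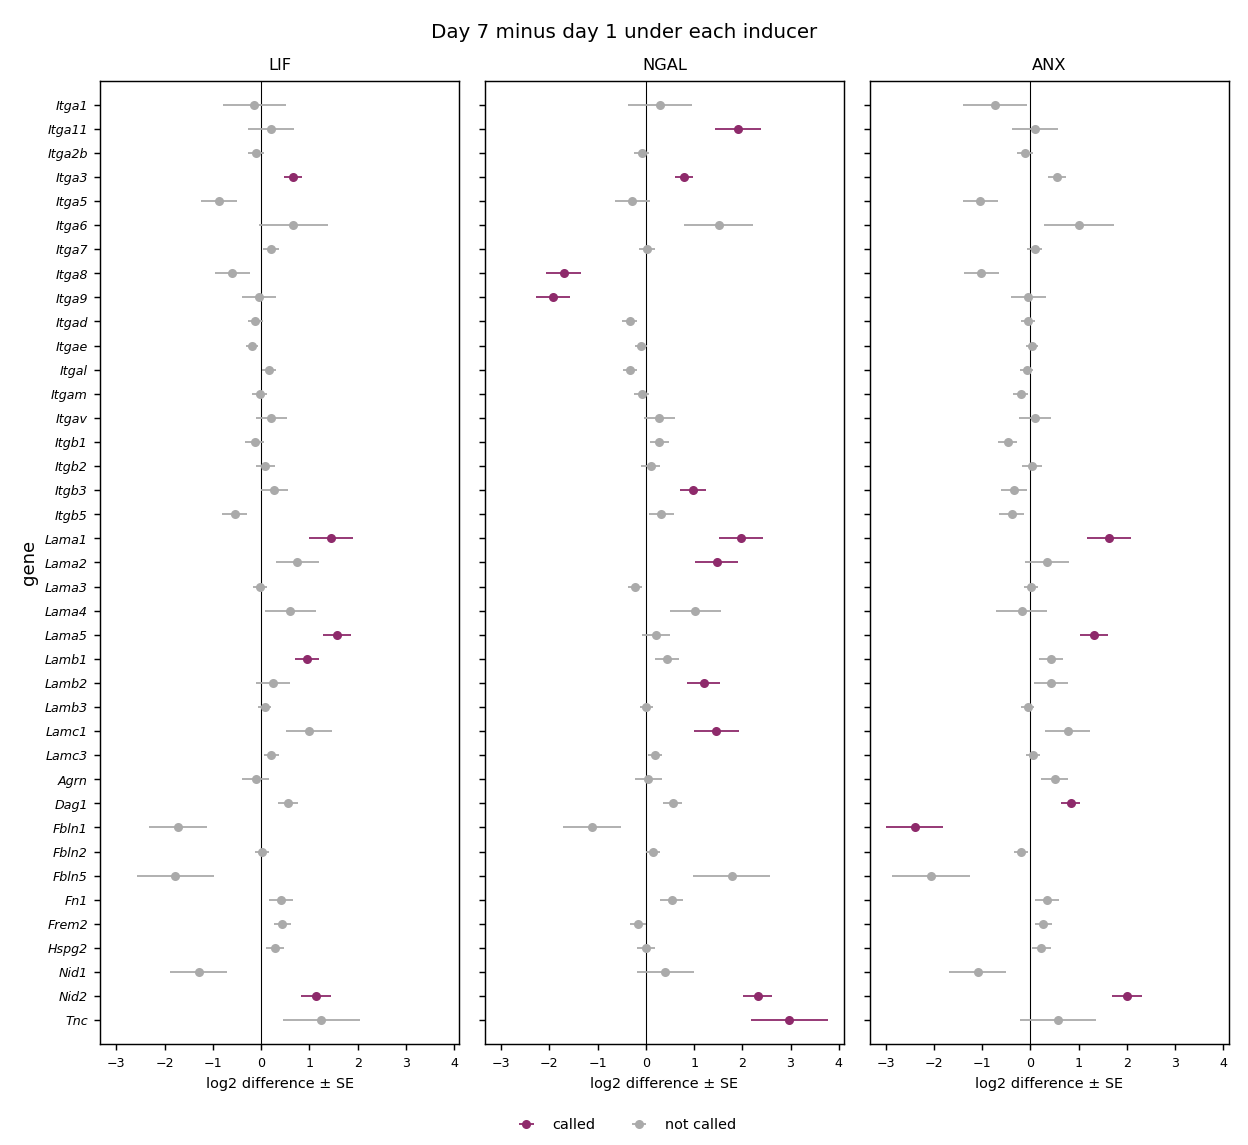
Difference of day 7 minus day 1 (log2, point) with its SE (bar) for the 39 tested genes under LIF, NGAL and ANX, with genes called by limma in purple and others in grey. Nid2 and Lama1 were called under all 3 inducers, and Itga8 and Itga9 were called lower under NGAL.

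In all, 5 members rose and 0 fell under LIF (4.39% and 6.51% of all genes, 10.9% together), 9 rose and 2 fell under NGAL (6.92% and 8.6%, 15.5% together), and 4 rose and 1 fell under ANX (6.4% and 7.43%, 13.8% together). The medians of members were 0.20, 0.28 and 0.03, against -0.04, -0.07 and -0.04 over all genes. Under NGAL tenascin C and laminin alpha 2 rose as well, while Fn1 (0.54), Fbln5 (1.78) and Fbln1 (-1.11) were not called. Tnc was at 7.95 and 9.49 on day 7, against 5.19 and 6.31 on day 1 (2.97, SE 0.80), and Lama2 at 8.38 and 7.11, against 6.43 and 6.12 (1.47, SE 0.45). Lamc1 (1.46, SE 0.47), Lamb2 (1.2, SE 0.35) and Itgb3 (0.98, SE 0.28) rose, and so did Itga11 (a collagen receptor chain), at 5.71 and 7.96, against 4.84 and 5.00 (1.91, SE 0.48). Its day 1 level is below the threshold, and the difference is 1.05 from the threshold. Itga11 passed the filter only through NGAL days 4, 5 and 7, so its place among the 9 follows from that filter and adds nothing to the count. Itga3 (a laminin receptor chain of podocytes and tubules) rose under LIF (0.66, SE 0.19) and NGAL (0.80, SE 0.19) and was at 0.55 under ANX. The LIF value of Itga3 was 0.22 without LIF day 1 replicate 2 and 0.41 without LIF day 7 replicate 2, not called in either fit nor with the spike-in covariate (0.61), and 1.10 without LIF day 1 replicate 1.

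Itga8 and Itga9 fell under NGAL. Itga8 (the nephronectin receptor chain) was at 6.64 and 8.30 on day 7, against 9.24 and 9.09 on day 1 (-1.70, SE 0.36), and Itga9 at 6.40 and 7.54, against 9.16 and 8.62 (-1.92, SE 0.36). Both day 7 arrays were below both day 1 arrays for each gene, and both calls ended without NGAL day 7 replicate 1, leaving -0.86 and -1.10. Metanephric mesenchyme markers fell with them (3 of 8, median -0.85), with sums of 2813 and 6831 on NGAL day 7, against 8294 and 9639 on day 1. Under LIF and ANX, Itga8 was at -0.60 and -1.02 and Itga9 at -0.05 and -0.04, not called. Under ANX, Fbln1 fell by 2.40 (SE 0.59), to 7.57 and 8.12 on day 7, against 9.88 and 10.61 on day 1. Its other probe set gave -0.48. Dag1 (dystroglycan, a laminin receptor) rose by 0.83 (SE 0.20) under ANX, and its 3 other probe sets past the threshold gave 0.12 to 0.82. With probe sets averaged, the ANX calls of Fbln1 and Dag1 ended. Lamb1 rose under LIF by 0.96 (SE 0.25).

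Several of these calls rest on single arrays. The LIF count was 8 without LIF day 7 replicate 1, and 2 and 1 without LIF day 1 replicates 1 and 2. The NGAL count was 5 to 7 and the ANX count 2 to 4 with 1 array left out. The ANX call of Lama1 ended in all 4 of these fits, as did the NGAL call of Lamc1. The NGAL call of Lama2 ended in 3 of 4, with values of 0.83 without NGAL day 7 replicate 1 and 2.10 without replicate 2. That of Itgb3 ended in 3 of 4 as well, with 1.45 and 0.51 in these fits. Without NGAL day 7 replicate 2, Itga11 was at 0.79, and without replicate 1 at 3.03. The NGAL calls of Itga11 and Lamb2 ended in 3 of 4 fits, and those of Lama1 and Tnc in 2 of 4. The LIF calls of Lama1 and Lamb1 ended in 3 of 4, and the ANX calls of Fbln1 and Dag1 in 2 of 4. In fits of the compared arrays alone, 0 members were called for LIF and 3 for NGAL, with the share of all genes not counted. The change from day 1 to day 7 was not shown to differ between inducers for any member (0 of 39 for each pair, with 0.00878%, 0% and 0.0527% of genes called for LIF minus NGAL, LIF minus ANX and NGAL minus ANX), in tests added after the values were seen. Nephron epithelium markers rose in 4, 6 and 7 of 8 cases under LIF, NGAL and ANX. Their sums on day 7 were 1878 and 4662 for LIF, 1514 and 4087 for NGAL and 3942 and 4163 for ANX, against 614 to 1192 on day 1. Endothelial markers fell in 4, 6 and 7 of 9 cases, with median differences of -0.94, -0.87 and -1.06. The arrays with the lower sums, LIF and NGAL day 7 replicates 1, are those with the lower Lama1 and Itga6. NGAL day 7 replicate 1 also had the highest sum of macrophage markers, 2923, against 830 to 2155 in the other arrays. The part of cell makeup in these changes was not tested.

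Across the 3 inducers together, day 7 explants (6 arrays) differed from fresh tissue (2 arrays) in 17 members, with 10 higher and 7 lower, beside 15.9% and 18.6% of all genes (34.5% in all), and medians of 0.20 over members and -0.04 over all genes. Lamb1 was at 10.71 and 11.28 under LIF, 11.06 and 11.24 under NGAL and 10.99 and 11.01 under ANX, against a mean of 9.90 over both fresh arrays (1.15, SE 0.20, limma adjusted p = 0.000103). All 6 day 7 arrays were above both fresh ones. Tnc rose by 2.42 (SE 0.65, or 1.38 from the threshold), Lamc1 by 1.35 (SE 0.38), Lama1 by 1.26 (SE 0.37), Itgb3 by 0.99 (SE 0.23) and Dag1 by 0.95 (SE 0.16). Smaller rises were those of Itgav (0.84), Lama5 (0.78), Itga3 (0.65) and Fn1 (0.53). For Dag1 and Itgav, 1 other probe set each had the opposite sign.

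The members that fell included the mesenchymal receptor chains. Itga8 was at 7.53 and 7.24 under LIF, 6.64 and 8.30 under NGAL and 7.93 and 7.80 under ANX on day 7, against 8.65 and 8.30 in fresh tissue (-0.90, SE 0.30), so NGAL day 7 replicate 2 lay level with the lower fresh array. Itga9 changed by -1.16 (SE 0.29), Fbln1 by -1.31 (SE 0.48, and -0.16 by its other probe set), Agrn by -0.81 (SE 0.23), Fbln2 by -0.60 (SE 0.12, or -0.49 with its LIF and ANX means set to the threshold) and Itgae by -0.52 (SE 0.10). Itga2b (the alpha chain of the platelet fibrinogen receptor) changed by -0.35. Nid1 (0.44), Lama4 (0.45), Itgb1 (0.24), Itga6 (0.47), Hspg2 (-0.36) and Frem2 (-0.06, of the embryonic basement membrane) were not called. Nid2 was not called either, with day 7 means of 9.83 under LIF, 10.06 under NGAL and 10.06 under ANX, against 9.45 in fresh tissue. The count was 8 without fresh replicate 1 and 7 without fresh replicate 2. The calls of Lamb1, Dag1, Itgb3, Itga3, Itgae and Fbln2 stood in all 8 fits that left out 1 array. On day 7, 8 of 8 nephron epithelium markers were above fresh tissue and 8 of 9 endothelial markers, 4 of 8 renal stroma markers and 3 of 8 metanephric mesenchyme markers below it. The 5S rRNA signal was 7.24 to 9.0 on day 7, against 6.32 and 6.62 in fresh tissue. The part of these in the differences was not tested.

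The inducers differed most between LIF and NGAL. Over the 6 days (12 arrays each), 18 of 39 members were lower in LIF than in NGAL explants and 1 was higher, beside 20.3% and 21.5% of all tested genes (41.7% in all). The median difference was -0.25 over members and 0.03 over all genes. The lower members span laminin chains, nidogen 1, fibulins and integrin chains. Fbln5 ran from 5.16 to 8.32 (median 6.69) in LIF arrays and from 7.54 to 10.11 (median 9.21) in NGAL arrays. Its mean difference was -2.31 (SE 0.33, limma adjusted p = 8.24e-06), the widest among members. Nid1 ran from 8.70 to 11.65 (median 10.24) under LIF and from 11.46 to 12.27 (median 12.02) under NGAL (-1.68, SE 0.24). Both LIF arrays were below both NGAL arrays on 5 of 6 days for each of these genes. The other Nid1 probe set gave -0.41.

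Among laminin chains, Lama4 ran from 7.59 to 9.66 (median 8.18) under LIF and from 8.74 to 10.17 (median 9.69) under NGAL (-1.25, SE 0.22). Lama2 ran from 5.56 to 6.99 (median 5.94) under LIF and from 6.12 to 8.49 (median 7.04) under NGAL (-1.13, SE 0.18). Lamb2 ran from 7.59 to 8.68 under LIF and from 8.07 to 9.71 under NGAL (-0.85). Lamc1 (-0.98) and Lamb1 (-0.47) were lower too. Lama1 (-0.05) and Lama5 (0.27) were not called. Lama2, Lama4, Lamb2 and Itgb1 had both LIF arrays below both NGAL arrays on all 6 days, which held for 3.61% of tested genes. The opposite order on all 6 days held for 2.3% of genes and 0 members.

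**Figure D3:**
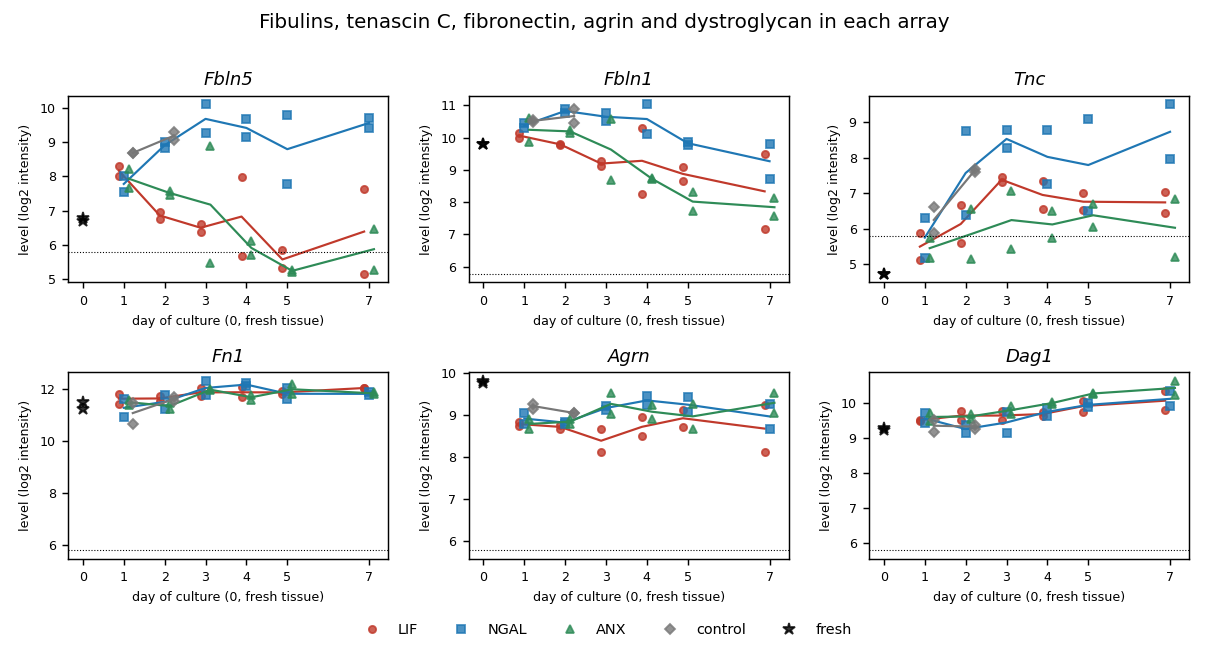
Level (log2 intensity) of 2 fibulins, tenascin C, fibronectin, agrin and dystroglycan against day of culture, with fresh tissue at day 0. Symbols are single arrays, lines join group means, the dotted line is the signal threshold, and the y axes differ between panels. From day 3 on, the means of Fbln5 and Tnc are highest under NGAL.

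Integrin chains lower under LIF than under NGAL were those of receptors for collagen, fibronectin, vitronectin, nephronectin and laminin (Itga3), and the common beta chain. Itgb1 ran from 11.49 to 11.95 (median 11.58) in LIF arrays and from 11.82 to 12.65 (median 12.38) in NGAL arrays, a difference of -0.70 (SE 0.08, limma adjusted p = 9.42e-07). Its other probe set past the threshold gave -0.87. Itga1 ran from 6.60 to 9.28 (median 8.11) under LIF and from 8.75 to 10.61 (median 9.61) under NGAL (-1.50, SE 0.27). Itga8 ran from 6.13 to 8.09 (median 7.43) under LIF and from 6.64 to 9.24 (median 8.47) under NGAL (-1.01, SE 0.15). Itgb5 (-0.89, SE 0.10), Itga5 (of the fibronectin receptor, -0.53), Itgb3 (-0.51), Itgav (-0.37) and Itga3 (-0.25) were lower as well, as were Tnc (-1.15, SE 0.33), Fbln1 (-1.0, SE 0.24) and Agrn (-0.37). The Itgb5 probe set can bind several transcripts, and its other probe set gave -0.91. Nid2 was the member that was higher under LIF (0.37, SE 0.13).

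**Figure D4:**
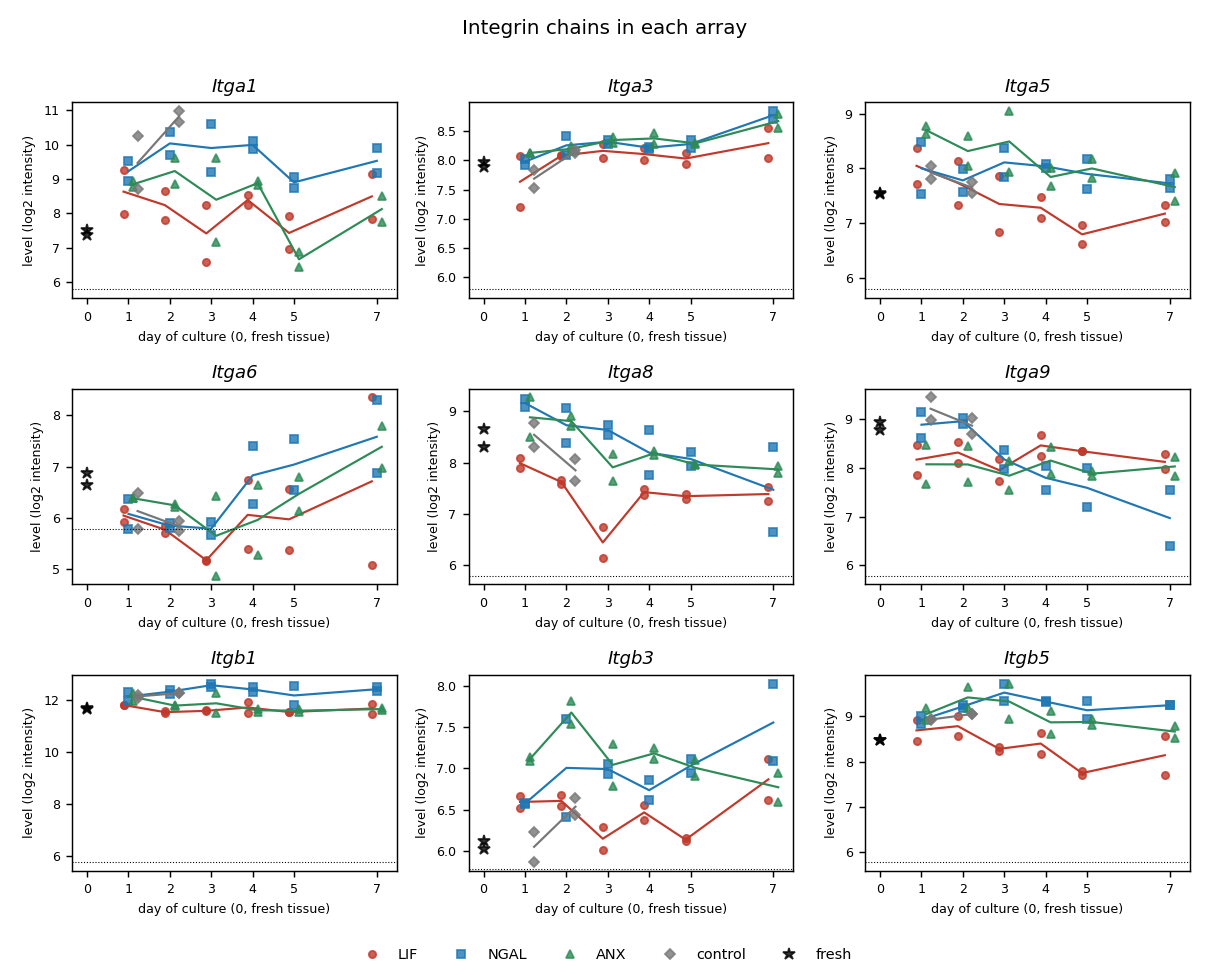
Level (log2 intensity) of 9 integrin chains against day of culture, with fresh tissue at day 0. Symbols are single arrays, lines join group means, the dotted line is the signal threshold, and the y axes differ between panels. Itga8 lies lower in LIF than in ANX arrays on each day, Itgb1 lower in LIF than in NGAL arrays, and the Itgb3 mean is highest under ANX on day 2 and under NGAL on day 7.

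Between LIF and NGAL, 20 members were called on days 3 to 7 alone, beside 39% of all genes. A further 24 fits left out 1 array each. The calls of Nid2 and Itgav ended in 6 and 9 of these 24 fits and on days 3 to 7 alone, and every other call stood in all of them. Fn1 (0.05), Dag1 (0.06), Hspg2 (-0.06), Frem2 (-0.05) and Itga6 (-0.57) were not called.

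NGAL differed from ANX in 12 members, 10 higher and 2 lower, beside 15.3% and 22.2% of all genes (37.5% in all), with medians of 0.10 over members and -0.04 over all genes. The same NGAL arrays enter both comparisons. In ANX arrays Fbln5 ran from 5.21 to 8.89 (median 6.29), so NGAL arrays were higher by 2.42 (SE 0.33, limma adjusted p = 9.60e-06). Tnc ran from 5.19 to 9.49 (median 8.12) under NGAL and from 5.14 to 7.05 (median 5.91) under ANX (1.72, SE 0.33). Itga1 (1.24, SE 0.27), Fbln1 (1.15, SE 0.24), Lama2 (1.11, SE 0.18) and Lama4 (1.08, SE 0.22) followed, and then Nid1 (1.06, and 0.21 by its other probe set), Lamb2 (0.82), Itga11 (0.66) and Itgb1 (0.57). The Itga11 value falls to 0.23 where group means under the threshold are set to it, and since the gene was tested only because of its NGAL level, its place among the 10 adds nothing to the count. Lama5 (-0.36, SE 0.12) and Dag1 (-0.27, SE 0.08) were lower under NGAL. Lama2 was the member with both NGAL arrays above both ANX arrays on all 6 days, which held for 1.28% of genes. Lower NGAL arrays on all 6 days were found for 1.61% of genes and 0 members. The count was 11 to 15 in the 24 fits that left out 1 array, and the call of Lama5 ended without NGAL day 3 replicate 1.

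LIF differed from ANX in 7 members, all of them lower under LIF, beside 3.37% of genes lower and 1.63% higher (5.01% in all). Medians were -0.03 over members and -0.02 over all genes. Of the 7, 5 are integrin chains. Itga8 ran from 6.13 to 8.09 (median 7.43) under LIF and from 7.64 to 9.27 (median 8.16) under ANX (-0.90, SE 0.15, limma adjusted p = 0.000606), with LIF arrays below ANX arrays on all 6 days, which held for 0.202% of genes. Higher LIF arrays on all 6 days were found for 0.0615% of genes and 0 members. Its other probe set gave -0.76. Itga5 (-0.77, SE 0.15), Itgb5 (-0.69, SE 0.10), Itgb3 (-0.66, SE 0.11), Lamc1 (-0.67, SE 0.19), Lamb1 (-0.34, SE 0.10) and Itga3 (-0.28, SE 0.08) were the others. The calls of Itga8, Itga5, Itgb5 and Itgb3 stood in all 24 fits that left out 1 array and on days 3 to 7 alone. Those of Lamc1, Lamb1 and Itga3 ended in 19, 17 and 14 of the 24. The count was 4 without replicate 1 of LIF days 3, 4, 5 or 7 or ANX day 2, or replicate 2 of LIF days 1 or 2 or ANX days 1, 3, 5 or 7, and 11 without LIF day 7 replicate 2 or ANX day 3 replicate 1.

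**Figure D5:**
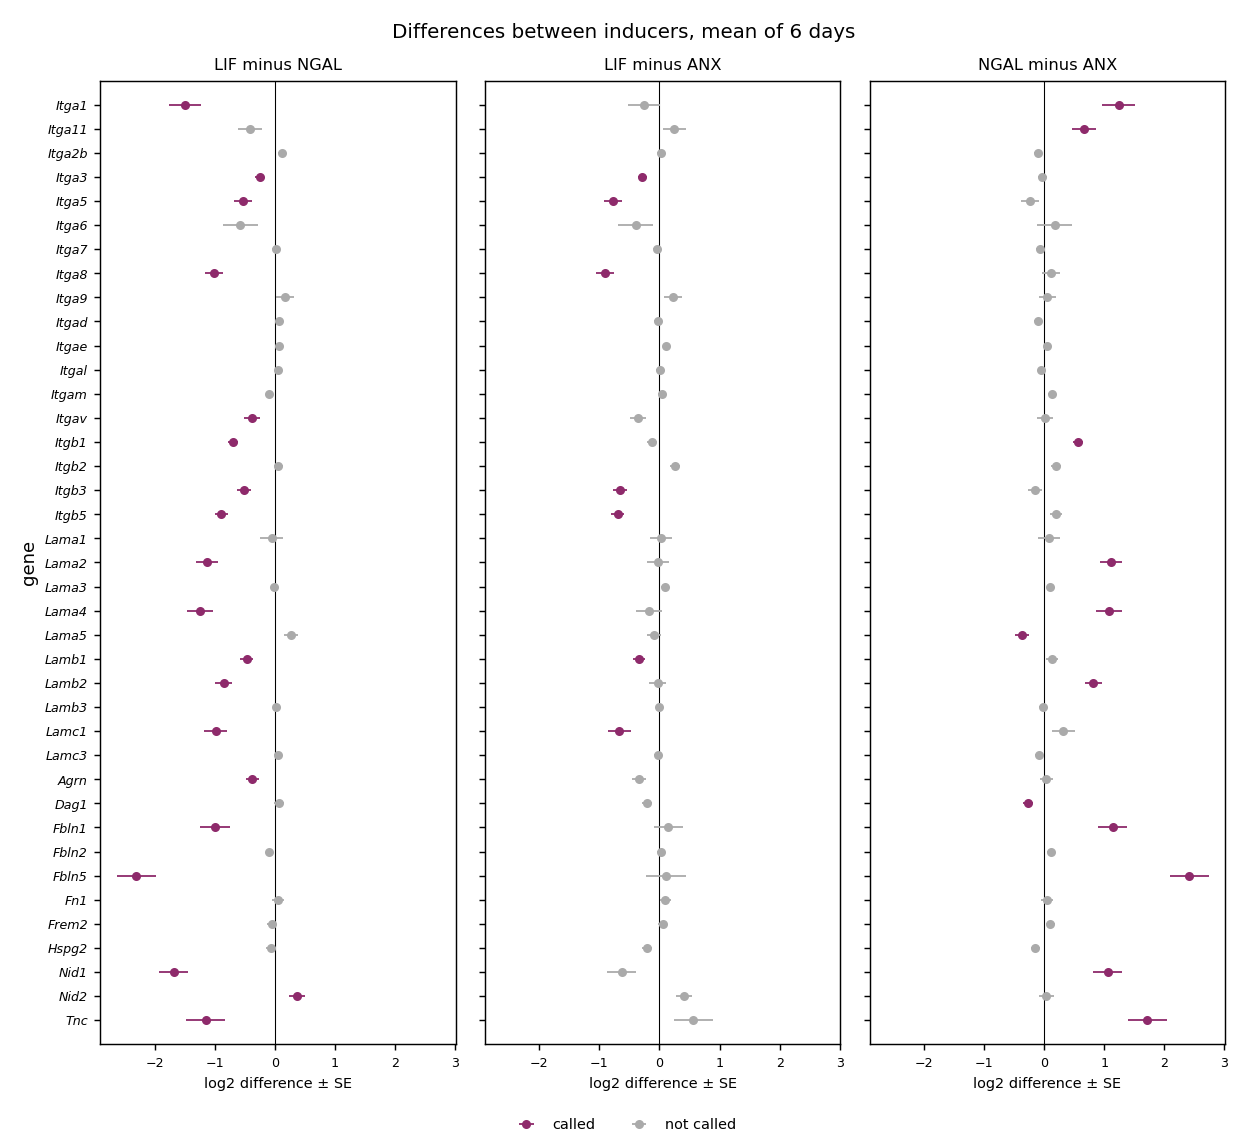
Difference between inducers (log2, point) averaged over 6 days with its SE (bar) for the 39 tested genes: LIF minus NGAL, LIF minus ANX and NGAL minus ANX. Genes called by limma are purple and others grey. Most called genes lie left of 0 for LIF minus NGAL and right of 0 for NGAL minus ANX.

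Markers of other cells moved with these comparisons. Renal stroma markers were lower in 7 of 8 cases and higher in 1 in LIF than in NGAL explants, and higher in 7 and lower in 1 in NGAL than in ANX explants. Their sums were 8938 to 12210 in LIF arrays, 12130 to 21110 in NGAL arrays and 8373 to 13700 in ANX arrays. Skeletal muscle markers were lower in 5 of 7 cases in LIF than in NGAL and higher in 7 of 7 in NGAL than in ANX. They summed to 2311 to 6216 in LIF, 2224 to 16150 in NGAL and 1937 to 3300 in ANX arrays. Macrophage and leukocyte markers were lower in 6 of 12 cases in LIF than in NGAL and higher in 8 of 12 in NGAL than in ANX, while the defining genes Ptprc and Csf1r were below the threshold in all groups. Metanephric mesenchyme markers were higher in 5 of 8 cases in LIF than in NGAL and lower in 6 of 8 in NGAL than in ANX. Endothelial markers were lower in 4 of 9 cases in LIF than in NGAL and higher in 4 of 9 in NGAL than in ANX. The part of stroma, muscle, leukocytes and endothelium in the differences was not tested. Replicates of ANX day 3 and of LIF day 7 lay far apart in the same genes, with unlike stroma sums only on ANX day 3. ANX day 3 replicate 2 was at 8.89 for Fbln5, 9.65 for Lama4 and 12.06 for Nid1, with a stroma sum of 13700. Its replicate 1 was at 5.46, 7.48 and 10.15, with a sum of 9057. LIF day 7 replicate 2 was at 7.62, 9.66 and 11.38, with a sum of 9425. Its replicate 1 was at 5.16, 8.20 and 8.70, with a sum of 9346.

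No member passed the test of inducer by day, in which 0.0351% of genes (4 genes) were called by limma, with 3 members (Itga9, Itgb3 and Fbln5) and 660 genes at an unadjusted p under 0.05.

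Genes that work with these proteins moved in similar comparisons. In the collagen IV network (8 tested of 10 genes), 4 were lower in LIF than in NGAL explants and 0 higher, beside 20.3% and 21.5% of all genes, with a median of -0.35 against 0.03 over all genes: Col4a5 (-1.16, SE 0.14), Col4a1 (-0.69, SE 0.10) and Sparc (a collagen-binding matrix protein, -0.77, SE 0.12) had the smallest adjusted p. Sparc, Col4a1, Col4a5 and Col4a2 were the 4 that rose under NGAL between days 1 and 7 (6.92% of all genes rose), Sparc by 1.29 (SE 0.29). Col4a5 was also lower than in controls under LIF (-1.50, SE 0.23) and ANX (-1.33, SE 0.23) on days 1 and 2. Of the genes of the adhesion complex on the inner side of integrins (13 tested of 14), 9 were lower in LIF than in NGAL and 0 higher, beside the same shares of all genes, with a median of -0.44. Tns1 (tensin 1, -1.25, SE 0.12), Fermt2 (kindlin 2, -0.69, SE 0.09) and Actn1 (alpha-actinin 1, -0.84, SE 0.11) led by adjusted p. In NGAL against ANX, 8 were higher and 0 lower, beside 15.3% and 22.2% of all genes, with Vcl (vinculin) at 1.41 (SE 0.16). Among 10 other receptors and partners, all tested, 4 were higher and 1 lower under LIF than in controls, beside 11.4% and 12.6% of all genes. Sdc2 (syndecan 2) changed by -2.35 (SE 0.36), and the epithelial Sdc1 (syndecan 1) rose by 0.83 (SE 0.13). Under ANX 4 were higher and 1 lower than in the same controls, beside 11.2% and 9.12% of all genes, with Cd151 (a tetraspanin bound to laminin receptors) at 0.98 (SE 0.17) and Sdc2 at -1.91 (SE 0.36). On day 7 of the 3 inducers, Lgals3 (galectin 3) was 4.14 (SE 0.56) and Cd151 1.37 (SE 0.20) above fresh tissue, and Sdc1 was at -0.94 (SE 0.15).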

How the data were processed

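Expression was measured on 42 Affymetrix rat arrays. The deposited values are intensities that the authors made with RMA, as named per the submitters' processing notes without a version. The values reach from 7.6 to 17972 and each array's median lies at 83.3 to 88.4, which is a linear scale; they were turned to log2. The platform's table names 1 gene for 20832 of 31099 probe sets, several for 436 and none for 9831. Of the 14218 genes, 14168 matched RefSeq by gene number. A mean per group was fitted over all 42 arrays with R 4.3.3 and limma 3.58.1 (empirical Bayes variances with a trend), and a gene was called where its p, adjusted by Benjamini and Hochberg over 11388 genes, was under 0.05. "Rose" and "fell" are used of called genes, and SE is the model's standard error. Arrays have no read depth, and 2 arrays per group limit the precision. The labels call the replicates biological, but nothing says how many embryos each held, so p-values measure the spread between these arrays.

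Each group was compared with controls of the same days, with fresh tissue, with its own day 1 or with another inducer. Every member could be named, 20 anchors had been listed, and folds with SE were given for up to 6 rises and 6 falls per comparison and up to 3 genes of each other list. The members and lists were chosen with earlier results of these data known. Alternatives were no filter, quantile normalization, averaging over a gene's probe sets, a filter at the 60th percentile (log2 7.10), the spike-in ratio as a covariate, only the arrays compared, a replicate block, single days and each array left out. The model was also run on simulated data, with results that are not given here. Tests of whether effects differ between inducers were added after the data were seen. Replicate numbers were not taken as pairs, since the labels do not say that they mark a shared litter or day. Over 210 pairs of groups, the difference between replicates 1 and 2 correlated at -0.646 to 0.742 (median 0.065), with 88 pairs over 0.1.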

Additional observations from a re-analysis of the deposited data

Results flagged for a closer look

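The effect of an inducer against control on days 1 and 2 differed between LIF and NGAL for 4 members by limma, in tests of the difference itself that were added after the values were seen. The differences (LIF minus NGAL, log2) were -1.14 for Itga8 (adjusted p = 0.00978), -0.56 for Itgb1 (adjusted p = 0.0207), -0.7 for Lamb1 (adjusted p = 0.0198) and 0.77 for Nid2 (adjusted p = 0.0392). Since both effects are taken against the same controls, each difference is the LIF arrays minus the NGAL arrays of those days. On day 1 Itga8 was at 7.89 and 8.09 under LIF and at 9.24 and 9.09 under NGAL, and on day 2 at 7.66 and 7.57 under LIF and at 8.39 and 9.07 under NGAL, with no overlap.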

How the results depend on the processing

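Counts of called members moved as follows by limma. In fits of the compared arrays alone there were 7 (instead of 3) for day 1 control against fresh, 26 (10) for day 2 control against fresh, 16 (9) for LIF and 11 (4) for ANX against control, 0 (5) for LIF and 3 (11) for NGAL day 7 against day 1, and 8 (17) for day 7 against fresh. With the spike-in ratio as a covariate, day 2 control against fresh had 5. After quantile normalization ANX against control had 7. For the counts given so far, the share of all genes was not counted, so they do not set members against other genes. LIF against control had 1 on day 1 alone (8.33% of all genes) and 5 on day 2 alone (8.14%). ANX against control had 2 on each day alone (6.5% and 5.26%). LIF against ANX had 4 on days 3 to 7 alone (2.26%). The cause of these shifts was not tested.

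Whether replicate numbers mark a shared litter or day, the labels do not say. With the replicate block, 5 members were called for day 1 control against fresh and 7 for ANX against control. Over all genes these counts were 979 instead of 690 and 2696 instead of 2309. The block raised the count over all genes in every comparison except NGAL against control, where it stayed at 0. Every other count of members stayed within 1.5 times.

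With 1 array left out, counts ran from 1 to 4 for day 1 and from 2 to 3 for day 2 control against fresh, 4 to 8 for LIF, 0 to 0 for NGAL and 2 to 7 for ANX against control, 1 to 8, 5 to 7 and 2 to 4 for day 7 against day 1 of LIF, NGAL and ANX, 7 to 18 for day 7 against fresh, 18 to 21 for LIF against NGAL, 4 to 11 for LIF against ANX, 11 to 15 for NGAL against ANX and 0 to 1 for inducer by day. A lone remaining array is then assumed to vary like the other groups. The share of all genes was not counted in these fits, so their counts do not set members against other genes. Of the refits of single called members, 1785 kept the call, 275 lost it and 0 changed direction. Members near the threshold are limited by signal over background, and small differences by 2 arrays per group.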
